A study of Mus musculus with 4 samples.

Results

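The collagen genes are the 36 genes on the array whose symbol is Col, a number, a and a number, such as Col1a1, and that have a probe set with a single gene symbol. They are 36 of the 12393 genes with such a probe set. The RefSeq table lists 44 mouse collagen genes of this form, and the other 8 (Col6a4, Col6a5, Col6a6, Col8a2, Col23a1, Col24a1, Col27a1 and Col28a1) were not analysed here. By type, 9 members form fibrils, 6 are chains of the basement membrane collagen and 21 belong to other types. Expression was measured in total RNA of gastrocnemius, the large calf muscle, with 1 array per sample and 2 samples per group. One group overexpressed the nuclear receptor PPARα in muscle (MCK-PPARa), where MCK stands for muscle creatine kinase, whose promoter is active in muscle fibres. Littermates without the transgene (NTG) were the other group. The labels used here name no age, sex or strain. Each array carries a replicate number and no animal identity, so the p-values reflect the spread among these samples alone, which may be technical. Signals are listed with replicate 1 first.

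Collagens are secreted proteins of 3 chains wound into a triple helix. In muscle, types I and III make up the fibrils of the connective tissue sheaths, type IV forms the network of the basement membrane around each fibre and capillary, and type VI links the 2 layers. Most collagen messenger RNA comes from fibroblasts and other cells between the fibres, whereas the transgene is driven in the fibres themselves. In whole muscle, fewer cells of a type and less RNA per cell cannot be told apart.

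The signals are MAS5 intensities, and all 4 arrays had a 2% trimmed mean between 1500.6 and 1500.7. Ppara itself read 633 and 2674 on the NTG arrays and 7969 and 15226 on the MCK-PPARa arrays, with both transgenic samples above both controls. The 10 skeletal muscle fibre markers, Ckm and Acta1 among them, read 34861 or more on every array. The 2 replicate numbers differed in the 5′ control probe set for 18S ribosomal RNA, which read 2202 and 2313 on the replicate 1 arrays and 28.9 and 44.7 on the replicate 2 arrays. Number-matched differences, replicate 1 first, are therefore given beside the pooled ones. Differences are of log2(signal + 64.2), MCK-PPARa minus NTG, where the offset of 64.2 is 10% of the median signal. The offset shrinks differences between dim signals. Errors are standard errors (SE) from limma with n = 2 per group, and intervals are limma's 95% intervals.

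No collagen gene passed the comparison of MCK-PPARa with NTG muscle. Of the 36 members, 29 had a mean signal past the 40th percentile of all probe sets, which was 453, and were tested among 8414 genes. Of these 29, 0 passed an adjusted p of 0.05 in limma with Benjamini-Hochberg adjustment, against 5 genes or 0.0594% of all tested. Before adjustment, 0 of 29 members had a p under 0.05, against 5.84% of all genes. The members' limma adjusted p lay between 0.86 and 0.998. Ppara itself, 8.02-fold higher in MCK-PPARa muscle, did not pass this test either (limma adjusted p = 0.21). Ppara did pass in limma with the replicate number as a block (adjusted p = 0.00079). With so few arrays the precision is limited: the smallest two-sided p of an exact permutation test is 0.333 with 2 samples in each group, and in simulated arrays limma found 1.9% of simulated 2-fold changes and 52.0% of those of 2 log2 units. The 95% interval lay between -1 and 1 for 10 of the 29 members, and for the other 19 it included a 2-fold difference in at least 1 direction. No member passed in any of the 13 alternative fits either, over backgrounds of 2.56% of genes called with the replicate number as a block, 0.0484% with no filter, 0.0685% with a filter at the 60th percentile, 0.0238% with quantile normalization, 0.0119% with median centring, 0.0357% without a variance trend, 0.0713% with probe sets averaged, and 0.0594% with either other offset. With 1 array left out the backgrounds were 0.951% and 0.856% (without NTG replicate 1 or 2) and 1.78% and 1.02% (without MCK-PPARa replicate 1 or 2).

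As a group the tested collagens had a median log2 difference of 0.079, beside 0.055 over all 8414 genes tested, and 19 of 29 were above 0, where 55.5% of all genes were. The median was -0.081 for the 9 fibrillar members, 0.17 for the 6 basement membrane members and 0.28 for the 14 tested members of other types. Between the replicate 1 arrays these 3 medians were 0.19, 0.30 and 0.39, and between the replicate 2 arrays -0.15, 0.34 and 0.048. The basement membrane median was thus of like size in both pairs, although 3 of its 6 members had opposite signs in the pairs. The fibrillar median changed sign, and that of the other types was near 0 in the replicate 2 pair. Centring each array on its median moved the median of all genes by -0.10, and the collagen median to -0.023. Leaving out any 1 of NTG replicate 2, MCK-PPARa replicate 1 and MCK-PPARa replicate 2 turned the fibrillar median positive (0.057, 0.026 and 0.066), and without NTG replicate 1 the collagen median was -0.048.

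Both MCK-PPARa samples lay above both NTG samples for 8 of the 29 members, where 20.4% of all genes did so. Both lay below for 1 member, Col5a2, where 13.8% of all genes did so. The 8 were Col1a2, Col4a1, Col4a2, Col4a3, Col8a1, Col14a1, Col15a1 and Col16a1. In both number-matched pairs 13 members had a positive difference (35.2% of all genes did), 2 had a negative one (26.3% of all genes), and 14 had opposite signs. Across the 29 members the differences of the 2 pairs had a Pearson correlation of -0.26, against 0.37 over all genes tested. Among the 17 members above the 60th percentile of signal it was 0.28, as a description of genes that share the same arrays. The highest of the 4 signals was on MCK-PPARa replicate 1 for 12 members, where this held for 21.6% of all genes. It was on NTG replicate 1 for 1 member, against 19.8% of all genes.

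**Figure D1:**
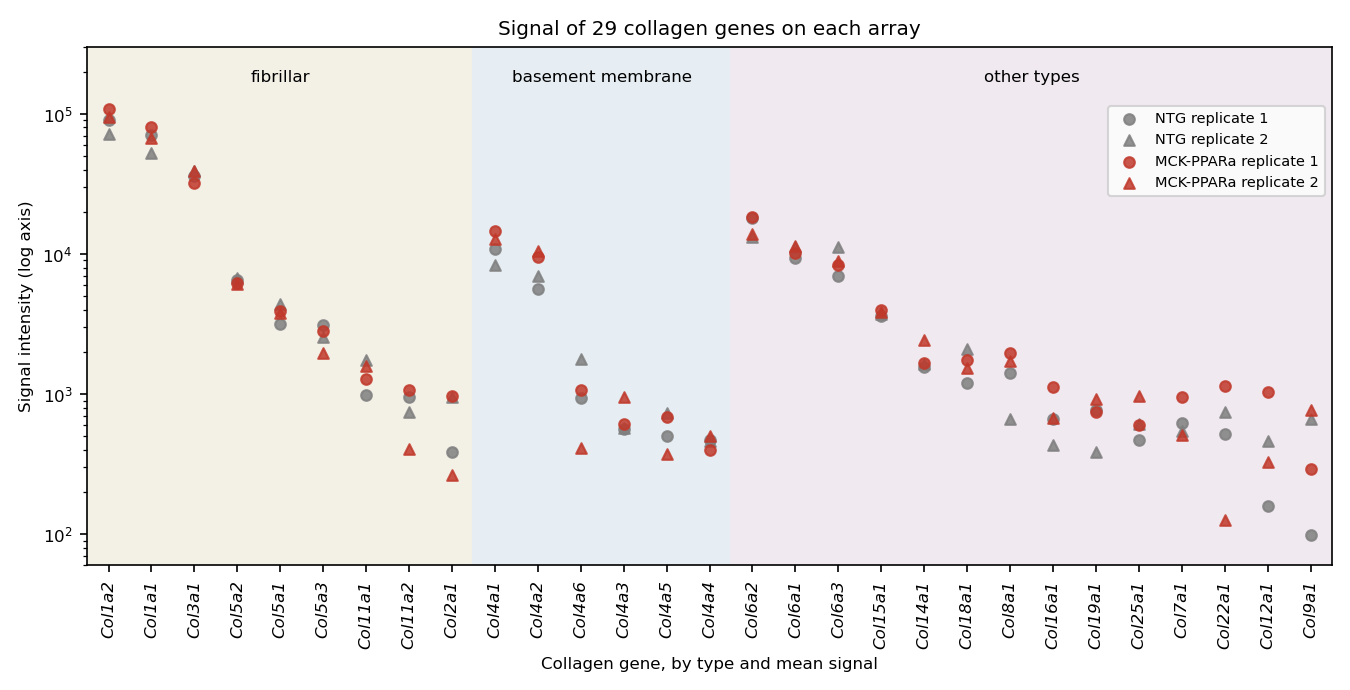
Signal intensity on a log axis for each of the 29 collagen genes past the filter, with 1 point per array (grey NTG, red MCK-PPARa, circles replicate 1, triangles replicate 2) and genes ordered within each type by mean signal. The points of Col1a1, Col1a2 and Col3a1 (32215 and above) lie close together, while those of Col12a1 (159 to 1039) and Col22a1 (126 to 1136) spread widely. Signals of different probe sets are not levels that can be compared between genes.

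The fibrillar members showed small differences where their signals were bright. Col1a1 and Col1a2 encode the chains of type I collagen, the main fibril of tendon and muscle sheaths. Col1a2 read 90433 and 71597 on the NTG arrays and 107864 and 95496 on the MCK-PPARa arrays. Its groups did not overlap, and the difference of their means was 0.33 ± 0.32 (SE), with an interval from -0.40 to 1.07. Col1a1 read 70664 and 52703 on the NTG arrays and 80581 and 67066 on the MCK-PPARa arrays. Here the lower transgenic sample lay below the higher control, and the difference was 0.27 ± 0.32. On both probe sets the replicate 2 sample was the lower one in each group, and the number-matched differences were 0.19 and 0.35 for Col1a1 and 0.25 and 0.42 for Col1a2.

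Col3a1, the single chain of type III collagen, which forms thinner fibrils with type I, read 36059 and 39095 on the NTG arrays and 32215 and 39100 on the MCK-PPARa arrays. The groups overlapped, and the replicate 2 samples gave almost the same signal (-0.081 ± 0.30 overall). Type V collagen sits inside type I fibrils and limits their width. Its Col5a2 chain read 6486 and 6749 on the NTG arrays against 6254 and 6103 on the MCK-PPARa arrays, a difference of -0.098 ± 0.28 with no overlap but a size well under its error. The Col5a1 chain read 3181 and 4379 on the NTG arrays and 3910 and 3801 on the MCK-PPARa arrays (0.046 ± 0.31, or -0.056 with median centring), with both transgenic samples between the controls. Col5a3 read 3110 and 2570 on the NTG arrays and 2829 and 1970 on the MCK-PPARa arrays (-0.25 ± 0.32), where the groups overlapped and replicate 2 was again the lower sample of each group.

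The remaining fibrillar members are best known from cartilage and were dim here. Col11a1 read 994 and 1752 on the NTG arrays and 1280 and 1577 on the MCK-PPARa arrays (0.099 ± 0.36, or -0.0030 with median centring), with the transgenic samples between the controls. Col11a2 read 961 and 746 on the NTG arrays and 1076 and 405 on the MCK-PPARa arrays (-0.32 ± 0.50). Col2a1, the chain of cartilage fibrils, read 389 and 957 on the NTG arrays and 964 and 264 on the MCK-PPARa arrays, so that its difference was 1.18 in the replicate 1 pair and -1.64 in the replicate 2 pair. For Col11a2 and Col2a1 the lowest signal was that of MCK-PPARa replicate 2. The number-matched differences were -0.16 and 0.00015 for Col3a1, 0.29 and -0.20 for Col5a1, -0.052 and -0.14 for Col5a2 and -0.13 and -0.37 for Col5a3. They were 0.34 and -0.15 for Col11a1 and 0.15 and -0.79 for Col11a2, so that 5 of the 9 fibrillar members had opposite signs in the pairs.

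The brightest probe sets of the 2 type I chain genes had differences of the same sign and like size. Their second probe sets did not, at -0.86 for Col1a1 and 0.017 for Col1a2. The upstream stretch of Col1a2 is shown because of the brightest ones and because Col1a2 has a single listed start. It is the 250 bases before that start in RefSeq's promoter table, plus strand, chr6:4505368-4505617 of GRCm38.p6, with capitals for each CCAAT and each GGGCGG.
Col1a2: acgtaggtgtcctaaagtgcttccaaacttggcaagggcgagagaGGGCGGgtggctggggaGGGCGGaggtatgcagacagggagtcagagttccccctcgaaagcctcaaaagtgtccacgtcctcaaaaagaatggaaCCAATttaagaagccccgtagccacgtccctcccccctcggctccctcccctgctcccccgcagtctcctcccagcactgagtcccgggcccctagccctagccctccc
It holds 1 CCAAT and 2 GGGCGG, the core letters of sites known for the factors NF-Y and Sp1. Promoter windows of 300 bases (250 before to 50 after the start) were listed for 27 of the 36 members, 30 windows in all. On either strand CCAAT stood in 12 of these 30 and in 37.4% of all 32851 windows, GGGCGG in 17 of 30 and 35.7%, and TATAAA in 5 of 30 and 13.6%. The direct repeat of AGGTCA with 1 base between the copies, the textbook element of PPARα with its RXR partner, stood in 0 of the 30 collagen windows and in 0.0396% of all. These matches describe letters in a short window only.

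**Figure D2:**
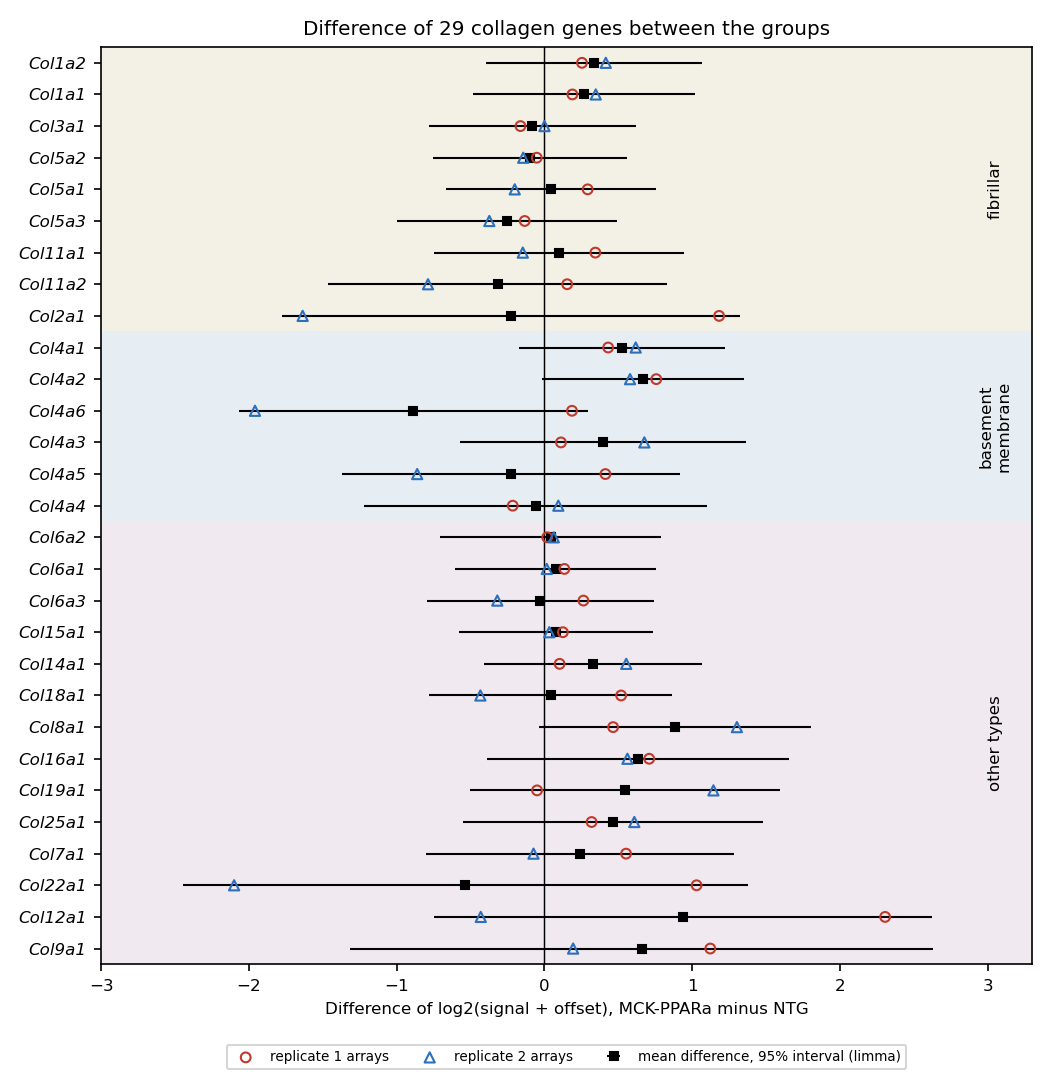
Difference of log2(signal + offset), MCK-PPARa minus NTG, for the 29 collagen genes past the filter. Squares and lines are limma's estimate with its 95% interval, red circles the replicate 1 arrays and blue triangles the replicate 2 arrays. Every interval crosses 0, those of Col4a2 and Col8a1 by the least (lower ends -0.015 and -0.035), and the circles and triangles of Col2a1, Col4a6, Col12a1 and Col22a1 lie far apart on both sides of 0.

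In the basement membrane group the 2 chains of its common network were higher in both transgenic samples, without passing the test. Col4a1 and Col4a2 encode the α1 and α2 chains, which assemble together into type IV collagen of nearly every basement membrane. Col4a1 read 10816 and 8379 on the NTG arrays and 14607 and 12891 on the MCK-PPARa arrays. Col4a2 read 5601 and 6957 on the NTG arrays and 9509 and 10426 on the MCK-PPARa arrays. For both genes each transgenic sample lay above each control. The differences were 0.52 ± 0.30 for Col4a1, or 1.44-fold, and 0.67 ± 0.29 for Col4a2, or 1.59-fold, with limma adjusted p of 0.96 and 0.86. The number-matched differences were 0.43 and 0.62 for Col4a1 and 0.76 and 0.58 for Col4a2. The differences with any 1 array left out lay between 0.34 and 0.71 for Col4a1 and between 0.51 and 0.82 for Col4a2. Their sign could not change in these fits, since the groups did not overlap. A second Col4a1 probe set gave 0.32, with 7971 and 9367 on the NTG arrays against 9891 and 11784 on the MCK-PPARa arrays, again with no overlap.

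Col4a1 and Col4a2 lie head to head and are known to be transcribed in opposite directions from a common control region. Their listed starts are so close that 22 bases belong to both transcripts, and the stretch around them is shown for that reason. It is given on the plus strand, the strand of Col4a2, at chr8:11312801-11312830 of GRCm38.p6 from RefSeq's promoter table, with capitals for the bases in both transcripts.
Col4a1 and Col4a2 starts: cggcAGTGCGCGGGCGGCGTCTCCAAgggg
Their promoter windows overlap by 78 bases, and both windows hold CCAAT and GGGCGG.

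Endothelial markers are given here because capillaries have a type IV basement membrane. The summed signal of the 8 markers was 13450 and 16137 on the NTG arrays and 18764 and 20043 on the MCK-PPARa arrays, without overlap. Of the 8, 7 had a positive difference (median 0.26), where 55.5% of all genes did. Single markers were higher without overlap for 4 of the 8, where 20.4% of all genes were. They overlapped for the other 4 (Tek, Tie1, Flt1 and Emcn), and the median was 0.43 in the replicate 1 pair and 0.063 in the replicate 2 pair. The largest was that of Kdr, the receptor for vascular endothelial growth factor, at 1850 and 1794 on the NTG arrays and 2836 and 4263 on the MCK-PPARa arrays (0.91 ± 0.32). Pecam1 had 0.35 ± 0.32, and 0 of the 8 passed the limma test, with Kdr alone at an unadjusted p under 0.05 (5.84% of all genes were). The part of these cells in the Col4a1 and Col4a2 values was not tested.

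The other 4 type IV chains, which occur in specialised basement membranes such as those of the kidney, were dim and did not move together. Col4a3 read 564 and 572 on the NTG arrays and 614 and 952 on the MCK-PPARa arrays (0.39 ± 0.42), with no overlap. Its head-to-head neighbour Col4a4 read 474 and 465 on the NTG arrays and 400 and 501 on the MCK-PPARa arrays (-0.060 ± 0.50), with the transgenic samples on both sides of the controls. Col4a5 read 503 and 731 on the NTG arrays and 690 and 374 on the MCK-PPARa arrays (-0.22 ± 0.49). Col4a6 read 932 and 1796 on the NTG arrays and 1069 and 414 on the MCK-PPARa arrays (-0.89 ± 0.51, limma adjusted p = 0.96). For the X-linked neighbours Col4a5 and Col4a6, MCK-PPARa replicate 2 was the lowest array and NTG replicate 2 the highest. Their number-matched differences were 0.41 and 0.19 in the replicate 1 pair and -0.86 and -1.96 in the replicate 2 pair. Those of Col4a3 were 0.11 and 0.68, and those of Col4a4 -0.21 and 0.094.

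Type VI collagen, the beaded filament network between basement membrane and sheath whose loss causes muscular dystrophy, was bright and showed no difference beyond its error. Col6a1 ran from 9299 to 11340 over the 4 arrays, with a difference of 0.075 ± 0.29. Col6a2 ran from 13286 to 18302, with 0.041 ± 0.32, and Col6a3 from 6929 to 11146, with -0.028 ± 0.33. Number-matched, they were 0.13 and 0.016 for Col6a1, 0.019 and 0.063 for Col6a2 and 0.26 and -0.32 for Col6a3. The intervals of these 3 chains lay between -0.80 and 0.79. The signs of these small values depended on the scaling: Col6a1 and Col6a2 became negative with median centring (-0.027 and -0.061), and Col6a3 became positive with quantile normalization (0.022).

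The multiplexins Col15a1 and Col18a1 encode collagens of the basement membrane zone that carry glycosaminoglycan side chains, and both release anti-angiogenic fragments. Col15a1 read 3631 and 3756 on the NTG arrays and 3965 and 3844 on the MCK-PPARa arrays, a difference of 0.079 ± 0.28, which became -0.023 with median centring. Its groups did not overlap. Col18a1 read 1198 and 2102 on the NTG arrays and 1744 and 1539 on the MCK-PPARa arrays (0.043 ± 0.36, or -0.059 with median centring), with both transgenic samples between the controls. A second Col18a1 probe set, at 741 and 747 against 1028 and 1003, gave 0.42 with no overlap. The number-matched differences were 0.12 and 0.033 for Col15a1 and 0.52 and -0.43 for Col18a1.

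Among members of the other types past the filter, the largest difference with groups that did not overlap was that of Col8a1, a short-chain network collagen of vessel walls and Descemet's membrane. It read 1407 and 665 on the NTG arrays and 1966 and 1735 on the MCK-PPARa arrays. The difference was 0.88 ± 0.40, or 1.85-fold, with a limma adjusted p of 0.88, and it was 0.46 in the replicate 1 pair and 1.30 in the replicate 2 pair. NTG replicate 2 was the low array, and without it the difference was 0.38. A second Col8a1 probe set was dim, between 17.7 and 72.6, and gave -0.44. The 250 bases before the listed Col8a1 start are shown as those of the member with the largest difference among the 8. They are on the minus strand at chr16:57754738-57754987 of GRCm38.p6, with capitals for CCGCCC, which is GGGCGG on the opposite strand.
Col8a1: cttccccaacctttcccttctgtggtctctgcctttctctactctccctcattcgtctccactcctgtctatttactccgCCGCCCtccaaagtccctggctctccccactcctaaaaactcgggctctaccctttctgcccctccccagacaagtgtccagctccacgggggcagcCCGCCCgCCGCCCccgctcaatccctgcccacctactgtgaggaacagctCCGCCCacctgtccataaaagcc
There are 4 such matches in this stretch, and no CCAAT or TATAAA.

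Fibril-associated collagens sit on the surface of fibrils and join them to other matrix. Of the 6 tested, 5 had a positive difference, where 55.5% of all genes did, with a median of 0.59, and most were dim. Col12a1 and Col9a1, at mean signals of 499 and 455, passed the filter of 453 only with the transgenic arrays in the mean. The filter thus leans towards positive differences in these genes, and the median that includes them is a description only. Col14a1 read 1556 and 1643 on the NTG arrays and 1675 and 2441 on the MCK-PPARa arrays (0.33 ± 0.32), with no overlap. Col16a1 read 667 and 437 on the NTG arrays and 1132 and 676 on the MCK-PPARa arrays (0.64 ± 0.44), where the lower transgenic sample was just above the higher control. Col12a1, found in tendon and muscle sheaths, read 159 and 467 on the NTG arrays and 1039 and 330 on the MCK-PPARa arrays. Its difference of 0.94 ± 0.73 was the largest of the 29, but it was 2.31 in the replicate 1 pair and -0.43 in the replicate 2 pair. Col9a1 read 99.6 and 662 on the NTG arrays and 292 and 767 on the MCK-PPARa arrays (0.66 ± 0.85), and both replicate 2 samples were above both replicate 1 samples. Col19a1 ran from 386 to 931 (0.55 ± 0.45). Col22a1, a collagen of the muscle-tendon junction, read 524 and 751 on the NTG arrays and 1136 and 126 on the MCK-PPARa arrays. The 2 transgenic samples of Col22a1 were the highest and the lowest of the 4, and the difference was -0.54 ± 0.82. Number-matched differences of the same sign were found for Col14a1 (0.10 and 0.55), Col16a1 (0.71 and 0.56) and Col9a1 (1.12 and 0.19), and of opposite sign for Col19a1 (-0.050 and 1.14), Col22a1 (1.03 and -2.10) and Col12a1. Second probe sets gave -0.34 for Col14a1, -0.71 for Col22a1 and, below the filter, -0.47 for Col9a1 and 1.30 for Col19a1. The second Col9a1 probe set had 0.19 and -1.14 in the pairs.

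Among the remaining tested members, Col7a1, the anchoring fibril of skin, ran from 515 to 948 (0.24 ± 0.45). The transmembrane collagen Col25a1, which is known from muscle innervation, ran from 469 to 967 (0.46 ± 0.44), with overlap in both genes. Their number-matched differences were 0.55 and -0.074 for Col7a1 and 0.32 and 0.61 for Col25a1.

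The 7 members below the filter were Col9a2, Col9a3, Col10a1, Col13a1, Col17a1, Col20a1 and Col26a1. In the limma fit with no filter 0 of the 7 passed, against 6 of all 12393 genes. Before adjustment 1 of the 7, Col20a1, had a p under 0.05, against 714 of the 12393. Col20a1, with a mean signal of 421, lay just outside the filter, and Col9a1 (455) and Col4a4 (460) just inside it. Col20a1, a fibril-associated member, read 140 and 228 on the NTG arrays and 462 and 852 on the MCK-PPARa arrays. Its groups did not overlap, the difference was 1.51 ± 0.54, and the limma adjusted p among 12393 genes was 0.70. The number-matched differences were 1.36 and 1.65, and 2 further Col20a1 probe sets, between 51.2 and 328, gave 0.24 and 0.32. Col9a2 also had groups that did not overlap, between 27.8 and 50.6, which is below the offset, so 2 of the 7 stood higher without overlap, where 21.8% of all genes did with no filter. Its number-matched differences were 0.25 and 0.16. Groups overlapped for Col10a1 (1.83 and -0.35 in the pairs), Col13a1 (-0.63 and 0.57), Col17a1 (0.10 and -0.15), Col9a3 (0.072 and -0.018) and Col26a1 (0.54 and 0.36). Over all 36 members without the filter the median difference was 0.089, against 0.095 over all 12393 genes.

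Probe sets of the same gene did not always give the same difference. More than 1 probe set was present for 19 members, and in 9 of them the probe sets had differences of both signs. In 10 members at least 2 probe sets were past the filter, and in 4 of these (Col1a1, Col5a1, Col5a2 and Col14a1) the signs were mixed. The second Col1a1 probe set read 14073 and 5899 on the NTG arrays and 14365 and 1698 on the MCK-PPARa arrays, which gave 0.029 in the replicate 1 pair and -1.76 in the replicate 2 pair. Its replicate 2 samples were the low ones in both groups, as with the brightest Col1a1 probe set, but by far more. The part of the replicate number in this was not tested. The second Col1a2 probe set stayed between 39526 and 40489 on all 4 arrays, with a difference of 0.017, so the 0.33 of the brightest one was not seen there. For Col14a1 the second probe set gave -0.34 and for Col22a1 -0.71. Averaging the probe sets of a gene reversed 4 members, Col1a1 (-0.30), Col5a3 (0.17), Col4a5 (0.051) and Col14a1 (-0.0041).

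**Figure D3:**
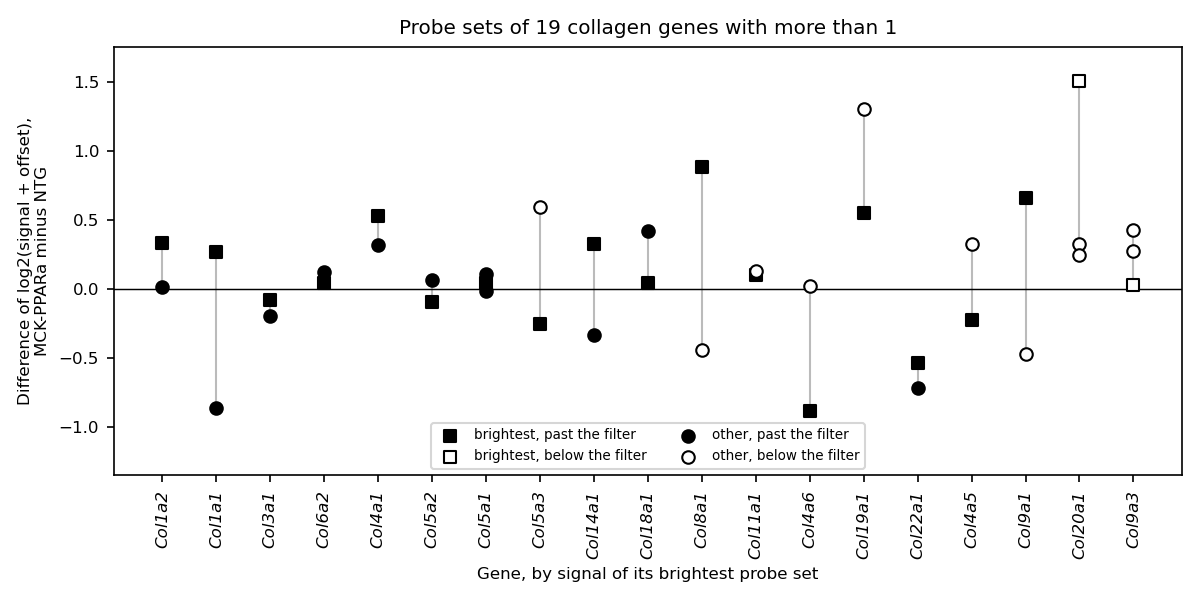
Difference of log2(signal + offset), MCK-PPARa minus NTG, for each probe set of the 19 collagen genes that have more than 1, joined by a line within a gene. Squares are the brightest probe set and open symbols lie below the filter. The probe sets of Col3a1, Col5a1, Col5a2, Col6a2 and Col11a1 lie close together, whereas those of Col1a1 (0.27 and -0.86) and Col8a1 (0.88 and -0.44) lie on opposite sides of 0.

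Genes that make, cut, bind and read collagen were taken from 7 lists of 112 genes, of which 85 were tested. None of the 85 passed the limma test over all genes, 1 had an unadjusted p under 0.05 (1.18%, against 5.84% of all genes), and their median was 0.068. In the list of chain hydroxylation and folding, 9 of 15 tested genes were above 0 (median 0.12). The prolyl hydroxylase subunit P4ha2 read 1131 and 1429 on the NTG arrays and 849 and 727 on the MCK-PPARa arrays (-0.65 ± 0.34), with no overlap. Crtap (0.45 ± 0.32) and P3h3 (0.44 ± 0.33), of the prolyl 3-hydroxylation machinery, were higher in both transgenic samples, and the lysyl hydroxylase Plod1 (0.33 ± 0.31) overlapped.

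Propeptide cleavage and cross-linking genes had a median of 0.43, with 6 of 8 tested genes above 0. Lox, the lysyl oxidase that cross-links collagen, read 1761 and 2434 on the NTG arrays and 2932 and 3440 on the MCK-PPARa arrays, a difference of 0.60 ± 0.31 with no overlap. The transglutaminase Tgm2 read 3307 and 7663 on the NTG arrays and 6127 and 14220 on the MCK-PPARa arrays. Its groups overlapped, since the replicate 2 arrays were higher in both, and the number-matched differences were 0.88 and 0.89. The related Loxl4 had 0.45 ± 0.37 and the proteinase enhancer Pcolce2 0.41 ± 0.34.

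Of the collagen breakdown genes 7 of 15 were above 0 (median -0.0094). Timp2, an inhibitor of matrix metalloproteinases, was the member with the unadjusted p under 0.05 (0.018, limma adjusted p = 0.62). It read 9765 and 8989 on the NTG arrays and 5185 and 5163 on the MCK-PPARa arrays, a difference of -0.85 ± 0.28 with the 2 transgenic samples nearly equal. The membrane-type collagenase Mmp14 had 0.48 ± 0.37, the cathepsin Ctsl -0.36 ± 0.33 and the prolidase Pepd, which recycles proline from collagen fragments, -0.29 ± 0.30. Collagen receptors were few: 4 were tested, with 3 above 0, and the integrin subunit Itgb1 (-0.26 ± 0.59), the discoidin domain receptors Ddr1 (0.28 ± 0.32) and Ddr2 (0.20 ± 0.37) and Itga2 (0.12 ± 0.43) did not pass.

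Fibril-binding proteoglycans and glycoproteins had 11 of 15 genes above 0 and a median of 0.14. Sparc, which binds type IV and fibrillar collagens, read 45709 and 46752 on the NTG arrays and 51813 and 79001 on the MCK-PPARa arrays (0.47 ± 0.33), with no overlap. Prelp (-0.45 ± 0.31) was lower in both transgenic samples, Dpt (0.32 ± 0.30) higher in both, and Lum (0.35 ± 0.32) overlapped. The partners of type IV collagen in the basement membrane had 7 of 13 above 0 (median 0.056). The laminin γ1 chain gene Lamc1 read 6429 and 6219 on the NTG arrays and 4897 and 4030 on the MCK-PPARa arrays (-0.50 ± 0.29). Lamc1 was therefore lower in both transgenic samples where Col4a1 and Col4a2 were higher. It was the only 1 of the 13 lower without overlap, where 13.8% of all genes were. Another 2 of the 13, both laminin chain genes, were higher without overlap like Col4a1 and Col4a2, where 20.4% of all genes were. Lamb1 (0.56 ± 0.40), Lamb2 (-0.55 ± 0.42) and the linker Nid2 (-0.63 ± 0.48) overlapped.

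Among signals of transforming growth factor β, the main inducer of collagen genes, 8 of 15 were above 0 with a median of 0.0023. Tgfb3 read 2196 and 1921 on the NTG arrays and 3289 and 2708 on the MCK-PPARa arrays (0.53 ± 0.30), and Smad2 (0.49 ± 0.31) was also higher in both transgenic samples. The receptor Tgfbr1 (-0.39 ± 0.30) was lower in both, and Smad3 (-0.79 ± 0.49) overlapped.

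**Figure D4:**
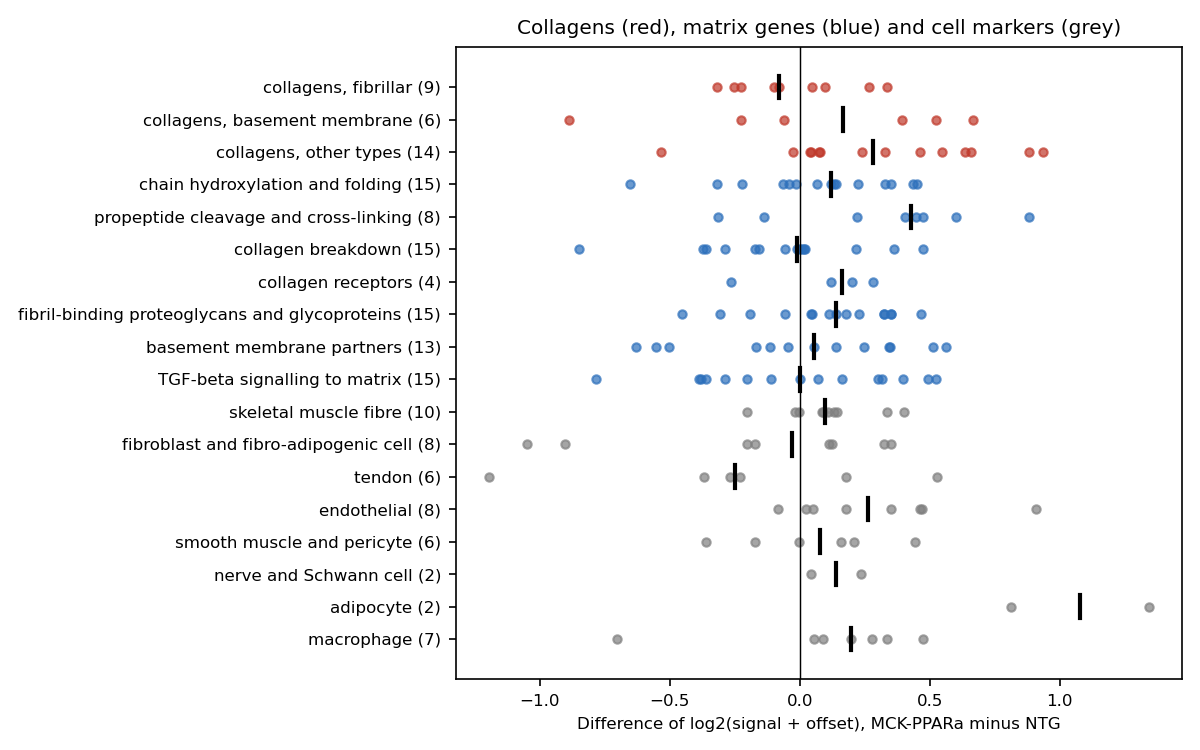
Difference of log2(signal + offset), MCK-PPARa minus NTG, for each tested gene of the 3 collagen types (red), the 7 lists of collagen-related genes (blue) and 8 lists of cell markers (grey), with the number of genes in brackets and a black bar at the median. Most medians lie near 0, with the fibrillar collagens at -0.081, propeptide cleavage and cross-linking at 0.43, and the 2 adipocyte markers at 1.08.

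Markers of the cells that could supply collagen were read on the same arrays. The 8 fibroblast and fibro-adipogenic markers on the array summed to 47166 and 46504 on the NTG arrays and to 52002 and 45133 on the MCK-PPARa arrays, with 4 of 8 above 0. Of these, the defining receptor Pdgfra read 1146 and 2011 on the NTG arrays and 803 and 762 on the MCK-PPARa arrays (-0.90 ± 0.37). Dcn, a proteoglycan abundant in fibroblasts, had 0.11 ± 0.30. It read 29974 and 27485 on the NTG arrays and 34385 and 28062 on the MCK-PPARa arrays, the larger part of each sum. The 6 tendon markers summed to 33425 and 30674 on the NTG arrays and 33873 and 24444 on the MCK-PPARa arrays. Of the 6, 4 had a negative difference (median -0.25), and 3 were lower without overlap, where 13.8% of all genes were. The tendon membrane protein Tnmd went the other way, at 0.53 ± 0.36. The matrix protein Thbs4 of this list read 10238 and 10466 against 4635 and 4325 (-1.20 ± 0.28), with a limma adjusted p of 0.30, or 0.014 with the replicate number as a block. Smooth muscle and pericyte markers (7 genes) summed to between 26422 and 31392 on the NTG arrays and between 25848 and 31375 on the MCK-PPARa arrays. Schwann cell markers (3 genes) summed to between 5228 and 6610 on the NTG arrays and between 5716 and 7009 on the MCK-PPARa arrays. Macrophage sums (7 genes) were 10548 and 10985 on the NTG arrays and 14537 and 12132 on the MCK-PPARa arrays, without overlap. Of these 7 genes 6 had a positive difference, but the groups overlapped for 5 of the 7. C1qb alone read 3187 on MCK-PPARa replicate 1 and 496 on replicate 2, and C1qa had -0.70 ± 0.81. The 4 adipocyte markers on the array summed to 2670 and 3073 on the NTG arrays and 6004 and 6152 on the MCK-PPARa arrays. Adipoq led the latter, at 1072 and 1504 against 3477 and 3180 (1.34 ± 0.31), with a limma adjusted p of 0.29, or 0.020 with the replicate number as a block. Retn was also higher in both transgenic samples (0.81 ± 0.31). Cidec and Lep lay below the filter and overlapped, with differences of 0.53 and -0.0058. No marker on the array was listed at 0, but neither was any other probe set (lowest signal 0.4), so this does not show detection. The part of these cell types in the collagen values was not tested.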

How the data were processed

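A single table of linear intensity was deposited by the authors, with 1 value per probe set and array, made with MAS5 per the submitters' processing notes. The sources used here do not give its version, settings or detection calls, so a dim signal cannot be told from background. All 22690 values per array were used as deposited, since the trimmed means were equal. Gene symbols came from the array's annotation, updated by Entrez ID: 20380 had 1 symbol, 691 several, 1555 none and 64 were controls. None of the 691 held a collagen symbol. The brightest single-symbol probe set by mean over the 4 arrays stood for a gene.

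The 2 groups of 2 arrays were compared with limma (version 3.58.1, R 4.3.3; lmFit, eBayes with a variance trend, two-sided, Benjamini-Hochberg over the 8414 genes past the 40th percentile). The total degrees of freedom were 7.76, mostly borrowed across genes. The fit was tested on simulated arrays, 20 runs with 200 changed genes, where 4.87% of calls were false. All fibrillar and basement membrane members past the filter have their signals given, as have other members without overlap or with a difference of at least 0.58 in size. Up to 4 genes per collagen-related list were named by smallest p, and at most 2 per marker list. Signals of Col18a1, Col22a1 and members below the filter were added after their values were seen. So were 4 further endothelial names and the adipocyte names Retn, Cidec and Lep. Members, types and lists were chosen with earlier results of these data known. Alternatives were another offset, filter, normalization, variance model or probe set rule, a replicate block and each array left out.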

Additional observations from a re-analysis of the deposited data

How the results depend on the processing

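No collagen gene passed under any of the 13 alternatives, the 4 fits with 1 array left out included. The filter at the 60th percentile tested 17 of the 29 members, and the other 12 have no value there. With the replicate number as a block, limma called 215 genes (2.56%) and again 0 collagen genes, at a lowest adjusted p of 0.14 for Col4a2. There 3 members had an unadjusted p under 0.05 (15.0% of all genes did), Col4a2 (0.0071), Col8a1 (0.011) and Col4a1 (0.022), and Tgm2 passed in the related lists (adjusted p = 0.0497), as did Thbs4 (0.014) and Adipoq (0.020) among the markers. The labels do not say what the number marks, and with 2 pairs the correlation of deviations between same-numbered arrays (0.47 across genes) does not settle it. The count over all genes, 5 in the main setting, was 2 with quantile normalization, 1 with median centring, 3 without a variance trend and 72 to 150 with 1 array left out.

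The medians moved by more than the spread between replicates in these cases, except where stated. Median centring gave -0.023 for all tested members, -0.18 for fibrillar, 0.065 for basement membrane and 0.18 for other types. The filter at the 60th percentile gave 0.046, 0.52 and 0.075 for the 3 types. Quantile normalization gave 0.060 for basement membrane, and averaging probe sets 0.22 for basement membrane and 0.16 for other types. Counting Col15a1 and Col18a1 as basement membrane gave 0.061 there and 0.40 for other types. With 1 array left out the ranges were -0.048 to 0.21 for all members, -0.14 to 0.066 for fibrillar, 0.14 to 0.26 for basement membrane and 0.17 to 0.34 for other types. The lowest of the first came without NTG replicate 1 and the highest without NTG replicate 2. Of these range ends, -0.14 for fibrillar, 0.14 for basement membrane and 0.34 for other types had moved by less than the spread.

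Single members changed sign with median centring (Col5a1 -0.056, Col11a1 -0.0030, Col6a2 -0.061, Col6a1 -0.027, Col15a1 -0.023 and Col18a1 -0.059), with quantile normalization (Col6a3 0.022, Col18a1 -0.0027) and with averaged probe sets (Col4a5 0.051, Col1a1 -0.30, Col5a3 0.17, Col14a1 -0.0041). The cause was not tested. With 1 array left out 14 members kept their sign in all 4 fits and 15 did not. For members whose groups did not overlap, the sign could not change. The ranges of those 15 were -0.29 to 0.49 for Col11a1, -0.96 to 0.32 for Col11a2, -0.35 to 0.43 for Col18a1, -1.86 to 0.79 for Col22a1 and -1.05 to 0.60 for Col2a1. They were -0.22 to 0.058 for Col3a1, -0.20 to 0.082 for Col4a4, -0.62 to 0.17 for Col4a5, -0.18 to 0.27 for Col5a1 and -0.51 to 0.0010 for Col5a3. For the last 5 they were -0.059 to 0.21 for Col6a1, -0.18 to 0.26 for Col6a2, -0.37 to 0.31 for Col6a3, -0.16 to 0.64 for Col7a1 and -0.42 to 1.73 for Col9a1. Of the 14 that kept their sign, 11 moved by more than 1.5 times in at least 1 fit. These were Col4a1 (0.34 to 0.71), Col4a3 (0.10 to 0.69), Col4a6 (-1.51 to -0.26), Col1a1 (0.057 to 0.48), Col1a2 (0.17 to 0.50), Col8a1 (0.38 to 1.39), Col12a1 (0.19 to 1.68), Col14a1 (0.065 to 0.59), Col16a1 (0.29 to 0.98), Col19a1 (0.098 to 1.00) and Col25a1 (0.15 to 0.78). With 1 array left out the lone array of a group is assumed to vary like the other group.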
